A study of Rattus norvegicus with 8 samples.

Results

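A set of 9 genes that mark B cells or carry their receptor signals were followed in the peripheral whole blood of rats fed a high-fat diet with or without mulberry leaf powder. The genes are Cd79b, Blk, Pou2af1, Ms4a1, Fcer2, Fcmr, Fcrla, Cd22 and Cd72, and each is represented by the probe sets that the platform annotation gives to exactly 1 of these symbols. In all, 8 of the 9 genes had such a probe set, with 11 probe sets among 31042 tested. Fcer2, Fcrla and Blk had 2 each, and Cd72, an inhibitory coreceptor of the B cell receptor, had none in this annotation and was not analysed here.

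The animals were male Wistar rats, bought at an age of 7 weeks and fed for 8 weeks after acclimation, with blood taken on day 56 after a night without food. One diet was a high-fat chow (Quick fat). The other was that chow plus 1% mulberry leaf powder, so both groups ate high-fat food, and a normal-diet group was not analysed here. Each diet group held 10 rats, and 4 Affymetrix expression arrays stand for each diet. The labels call these biological replicates and do not say whether 1 array holds 1 rat or a pool, so the p-values speak only of how far these arrays lie apart, which may be in part technical. The array values are on a log2 scale, but the spread between arrays is compressed by an unknown factor: the median SD of a probe set over the 8 arrays was 5.31e-06, and 99.4% had an SD under 0.001. Values are therefore given in SD units, which are distances from the probe set's mean over the 8 arrays divided by its SD over them, and a difference in these units is no fold change. Detection calls were not used here, so whether a dim probe set stood above background is unknown, and the number of arrays limits the precision.

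B cells recognise antigen through a membrane immunoglobulin that signals through the paired chains Cd79a and Cd79b. Src-family kinases such as Blk phosphorylate these chains, and lectin-like inhibitory receptors such as Cd22 set a brake on the signal by recruiting phosphatases. Mature B cells also carry Ms4a1 (CD20) and the receptors Fcer2 (CD23, for IgE) and Fcmr (for IgM), and they depend on Pou2af1, a coactivator that binds octamer factors at immunoglobulin promoters. In blood the B cell is a minority of the leukocytes, and in a bulk sample fewer B cells and less RNA per B cell cannot be told apart. For the tissue label, probe sets of the red cell genes Hbb, a hemoglobin chain, and Alas2, the first enzyme of erythroid heme synthesis, had mean levels of 15.09 and 13.85 (log2). Levels of different probe sets cannot be set against each other, and the Hbb probe set had almost no spread, so these levels are a description and no test of the label. The B cell markers measured here were all members.

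The sequences upstream of Fcmr and Fcrla are shown so that the start regions of a pair of B cell Fc receptor family genes can be read beside their values. Their correlation over the arrays, r = 0.78, did not pass its test and is given further on. RefSeq promoter windows matched 3 of the 8 measured genes by symbol (assembly GRCr8). Those of Fcmr and Fcrla, taken from 250 to 56 bases upstream of the transcript start, lie outside the gene models. The window of Cd22 lies inside its gene model and is not printed. The Fcmr window is chr13:44889430-44889624 on the plus strand, and the Fcrla window is chr13:85702882-85703076 on the minus strand, both written 5′ to 3′. Capitals mark every match, on either strand, to 3 motifs: the octamer ATGCAAAT that Pou2af1's partners bind, the PU.1 core GAGGAAGT and the E-box CANNTG.
Fcmr: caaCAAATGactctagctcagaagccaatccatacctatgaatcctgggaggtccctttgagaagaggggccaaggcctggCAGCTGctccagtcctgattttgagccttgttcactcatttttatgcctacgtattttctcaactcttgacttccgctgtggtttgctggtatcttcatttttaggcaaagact
Fcrla: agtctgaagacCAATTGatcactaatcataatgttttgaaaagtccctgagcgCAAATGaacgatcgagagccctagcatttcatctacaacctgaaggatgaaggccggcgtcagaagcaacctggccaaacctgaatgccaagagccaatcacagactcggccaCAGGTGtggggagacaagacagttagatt
The Fcmr window held 2 E-boxes, 247 and 169 bases upstream of the start. The Fcrla window held 3 E-boxes, 239, 197 and 84 bases upstream. No match overlapped another. Over all 33469 windows of this length and position in the table, 57.0% held an E-box. The octamer and PU.1 letters were in neither window, and in 1.28% and 1.46% of all windows. These matches describe the letters only.

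The comparison asks whether mulberry leaf in a high-fat diet goes with other levels of B cell transcripts in blood. All 8 measured genes had a lower mean in the mulberry arrays, with a median difference of -0.817 SD units, and none passed the test. By gene, counting the probe set of highest mean, 50.9% of 14217 named genes had a lower mean with mulberry, with a median difference of -0.019. Of the 11 member probe sets, 10 were lower and 1, the dimmer Blk probe set, was higher, against 47.3% lower among all tested probe sets. In the limma fit over the whole table no member had an adjusted p under 0.05 (percent of all probe sets called: 0%) or an unadjusted p under 0.05 (4.36% of all probe sets, 1352 of them). Every member had an adjusted p of 1.0, and the diets overlapped on all 11 member probe sets, where 2.52% of all probe sets had diets that did not overlap. The members and their direction were known from earlier results, so their common direction is a description.

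The same arrays were high or low for most of the genes, within each diet. In high-fat replicates 1 and 2 all 8 genes stood above their own mean, and in high-fat replicate 3 only 1 of 8 did. In the mulberry group, replicate 2 had 7 of 8 genes above their mean, replicate 4 had 4, replicate 1 had 1 and replicate 3 had 0. Averaged over the 8 genes, the high-fat arrays stood at 1.03, 1.18, -0.73 and 0.0 SD units (replicates 1 to 4) and the mulberry arrays at -0.93, 0.43, -0.9 and -0.08. So 2 high-fat arrays lay above all mulberry arrays, high-fat replicate 3 lay among the lowest, and mulberry replicate 2 lay above 2 of the high-fat arrays. Without high-fat replicate 3 the median difference of the 8 genes was -1.28, and without high-fat replicate 1 it was -0.577. No member was called in either case.

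**Figure D1:**
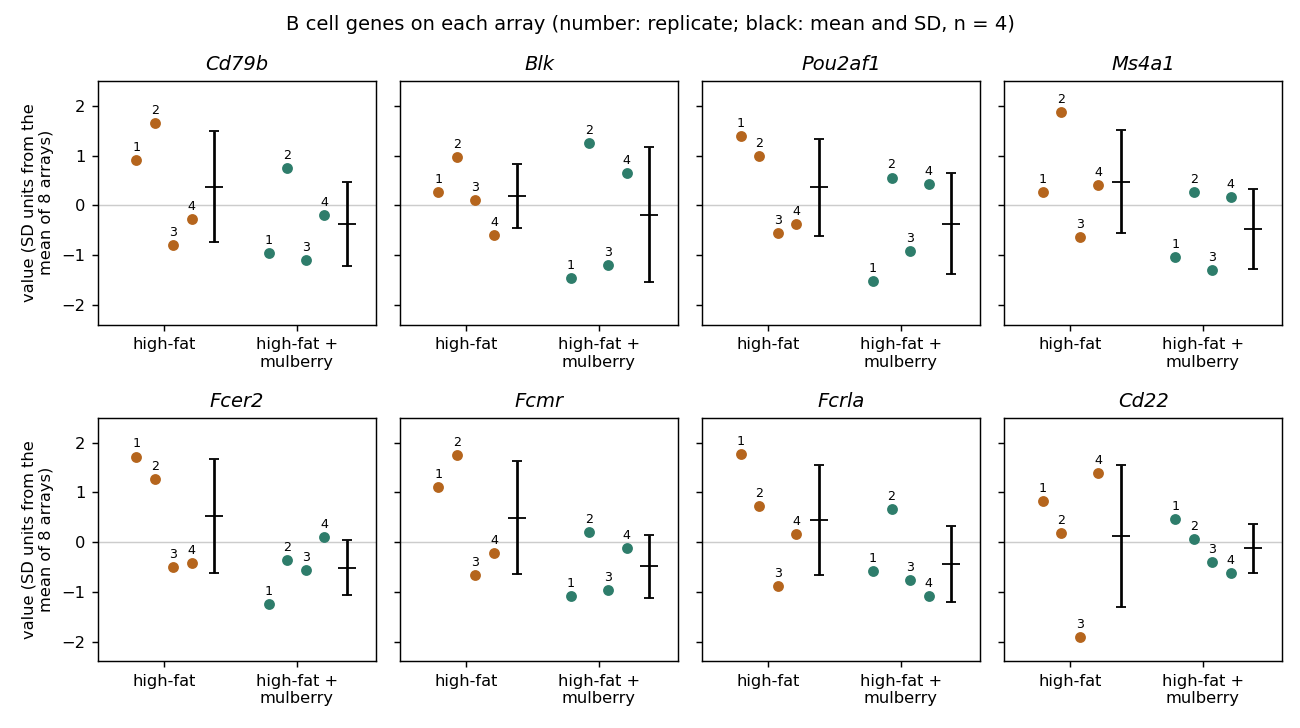
Values of the 8 measured genes on each array, in SD units from the mean of the 8 arrays (vertical axis), by diet (horizontal axis), with the replicate number beside each point and the mean with its SD (n = 4) in black. High-fat replicates 1 and 2 are the high points in most panels and mulberry replicates 1 and 3 the low ones, and the diets overlap in every panel.

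Cd79b, the signalling chain of the B cell receptor, had the widest spread of the members. Its high-fat arrays stood at 0.92, 1.65, -0.79 and -0.28 SD units (replicates 1 to 4), and its mulberry arrays at -0.95, 0.76, -1.1 and -0.2. The 2 highest arrays were high-fat, yet mulberry replicate 2 came next, and mulberry replicates 1 and 3 were lower than any high-fat array. The difference was -0.749 ± 0.658 (SE, n = 4 and 4, limma unadjusted p = 0.294, two-sided exact permutation p = 0.257). Without high-fat replicate 2 it was -0.402.

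Blk, the Src-family kinase that starts the signal, was measured by 2 probe sets that gave different pictures. On the brighter one the high-fat arrays stood at 0.26, 0.97, 0.11 and -0.59 and the mulberry arrays at -1.47, 1.26, -1.2 and 0.66. Mulberry arrays were thus both the highest and the lowest, and the difference was -0.376 ± 0.708 (SE, exact permutation p = 0.629). Over the arrays left out in turn it ran from -0.923 without mulberry replicate 2 to 0.0585 without mulberry replicate 1. The dimmer probe set, whose suffix marks probes that can bind other transcripts, stood higher with mulberry (0.502 ± 0.698, SE, exact permutation p = 0.457), and over the 8 arrays the pair correlated at only r = 0.26, so the direction of Blk is not settled.

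Pou2af1, the octamer coactivator, stood at 1.39, 1.0, -0.55 and -0.38 in the high-fat arrays and at -1.52, 0.56, -0.92 and 0.42 in the mulberry arrays. Its order of arrays was close to that of Cd79b, with high-fat replicates 1 and 2 on top and mulberry replicate 1 lowest. The diets differed by -0.729 ± 0.661 (SE, limma unadjusted p = 0.308, exact permutation p = 0.314). Without mulberry replicate 1 the difference was -0.403, and without high-fat replicate 1 it was -0.433.

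Ms4a1, which encodes the membrane protein CD20 that antibody drugs against B cells bind, stood at 0.27, 1.87, -0.63 and 0.4 in the high-fat arrays. Its mulberry arrays stood at -1.04, 0.27, -1.3 and 0.16. Here 3 of 4 high-fat arrays lay above all mulberry arrays, replicate 1 only just, and high-fat replicate 3 lay among the mulberry arrays. This gene had the smallest exact permutation p of the members (0.143), with a difference of -0.955 ± 0.617 (SE, limma unadjusted p = 0.167). The smallest p that 4 against 4 arrays can give is 0.0286.

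Fcer2, the low-affinity IgE receptor of mature B cells, had the largest difference, -1.03 ± 0.599 (SE, limma unadjusted p = 0.131, exact permutation p = 0.229). Its high-fat arrays stood at 1.72, 1.27, -0.51 and -0.42 and its mulberry arrays at -1.24, -0.36, -0.56 and 0.1. High-fat replicates 1 and 2 stood well above the other 6 arrays, which mixed both diets. The dimmer Fcer2 probe set had nearly the same pattern (r = 0.94 over the 8 arrays, 0.92 within diets) and a difference of -0.958 ± 0.624 (SE), although its SD on the deposited scale was 6.95e-06 against 0.000401 for the brighter one.

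Fcmr, the IgM receptor, stood at 1.11, 1.75, -0.67 and -0.23 in the high-fat arrays and at -1.09, 0.21, -0.97 and -0.11 in the mulberry arrays. Again high-fat replicates 1 and 2 were on top and the other arrays mixed the diets, with a difference of -0.981 ± 0.611 (SE, exact permutation p = 0.229). Fcrla, an Fc receptor-like protein that stays inside the B cell, stood at 1.77, 0.73, -0.89 and 0.16 in the high-fat arrays and at -0.59, 0.66, -0.76 and -1.08 in the mulberry arrays. High-fat replicate 1 was far above the rest here, and the difference was -0.886 ± 0.632 (SE, exact permutation p = 0.286), or -0.588 without that array. The dimmer Fcrla probe set differed by -0.743 ± 0.659 (SE) and followed the brighter one less closely (r = 0.69).

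Cd22, the sialic acid-binding inhibitory receptor, did not share this order of arrays. Its high-fat arrays stood at 0.83, 0.18, -1.9 and 1.38 and its mulberry arrays at 0.47, 0.06, -0.41 and -0.62. The mulberry arrays lay close together inside the range of the high-fat arrays, of which replicate 4 was the highest and replicate 3 the lowest. The difference was -0.249 ± 0.713 (SE, exact permutation p = 0.771), and it became -1.33 without high-fat replicate 3 and 0.188 without high-fat replicate 4, so its sign rests on single arrays.

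**Figure D2:**
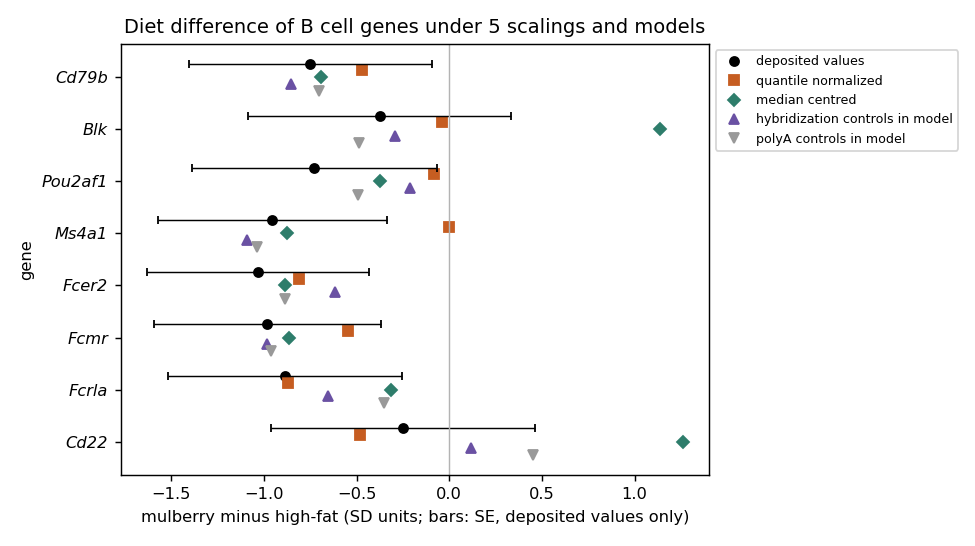
Difference between diets (mulberry minus high-fat, SD units, horizontal axis) for each of the 8 genes, from the deposited values with their SE and, without error bars, after 2 other scalings and with 2 sets of control probe sets in the model. The deposited differences all lie below 0, and Cd22 and Blk move to 1.26 and 1.14 after median centring. The Ms4a1 point at 0 after quantile normalization can also stand for a probe set without spread.

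These differences depended on the scaling between arrays, and the cause was not tested. Centring each array on its median moved the median difference of all named genes from -0.019 to 1.24 SD units and the share with a lower mean from 50.9% to 3.08%. Under this centring 6 of the 8 genes kept a lower mean, from Fcrla at -0.312 and Pou2af1 at -0.375 to Fcer2 at -0.887, with a median of -0.532 over the 8. Cd22 and Blk, the genes of narrow spread, turned to 1.26 and 1.14. Quantile normalization left a median of -0.476, with 7 genes lower and Ms4a1 at exactly 0.0. That value is also the one given to a probe set with no spread left over the arrays, so it is not read as equal diets, and it enters the median. It reduced Cd79b to -0.47, Fcmr to -0.548, Pou2af1 to -0.0834 and Blk to -0.0369, and moved Cd22 to -0.483. The hybridization controls, bacterial transcripts added in set amounts, had the higher mean with mulberry: it ran from -1.44 to 0.44 in the high-fat arrays and from -0.24 to 1.30 in the mulberry arrays. With these controls in the model 7 genes stayed lower and Cd22 turned to 0.12. Cd79b at -0.853 and Ms4a1 at -1.09 had larger differences than on the deposited values, and Fcmr at -0.983 hardly moved. The other lower genes had smaller differences, among them Fcer2 at -0.619 and Pou2af1 at -0.214. With the polyA controls, added before labelling, Cd22 turned to 0.452. Ms4a1 at -1.04 and Blk at -0.488 had larger differences than on the deposited values, and the other lower genes had smaller ones, with Fcrla at -0.354. The part of these controls in the differences was not tested beyond these models.

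The members differed in how widely they varied on the deposited scale. Cd79b had an SD of 0.000986, which is rank 195 of the 31042 probe sets from the widest and within the top 0.628%. Ms4a1 (rank 273), Fcmr (rank 311), Fcer2 (rank 361), Pou2af1 (rank 752) and Fcrla (rank 1097) followed, so 6 of the 8 genes lay within the widest 10%. Cd22 lay at 20.2% from the top and Blk at 35.1%, as did the dimmer Blk and Fcer2 probe sets at 40.3% and 40.5%. Since compression can be unequal between probe sets, these ranks describe the table and are not a ranking of biological variation.

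**Figure D3:**
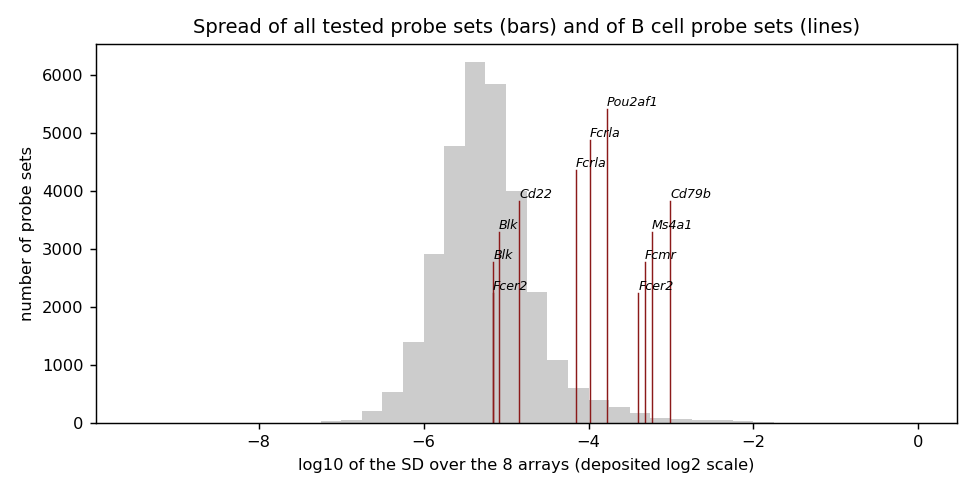
Distribution of the SD over the 8 arrays for all tested probe sets (grey bars, number of probe sets per bin of log10 SD) with the 11 B cell probe sets as vertical lines, whose height only separates the names. Cd79b, Ms4a1, Fcmr and Fcer2 lie in the right tail, and Blk, the dimmer Fcer2 probe set and Cd22 lie in the bulk.

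Most pairs of the genes had positive correlations, and a part of them passed the test. Among the 28 pairs of the 8 genes, 27 had a Pearson correlation above 0 over the 8 arrays, with a median of 0.74, and after each diet was centred on its own mean 27 were again above 0 with a median of 0.72. In 9 pairs the exact permutation p adjusted over the 28 pairs was under 0.05 for Pearson's r, and in 10 pairs for Spearman's rho. The share of such pairs among other genes is not given here, so these counts are not read as particular to the members. Cd79b, Ms4a1, Fcer2, Fcmr, Pou2af1 and Blk were each in at least 1 such pair, and Fcrla and Cd22 were in none. A single diet has only 4 arrays, too few for a correlation of its own. The closest pair was Cd79b and Fcmr (r = 0.97, exact permutation p = 7.44e-05, adjusted 0.00208, rho = 0.98, adjusted 0.00371). It had r = 0.97 within diets and r = 0.94 without the 2 arrays farthest from the median of Cd79b.

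The IgM receptor gene was also close to the other surface genes: Ms4a1 and Fcmr had r = 0.91 (exact permutation p = 0.000918, adjusted 0.00655, rho = 0.83, adjusted 0.0431, r = 0.77 without the 2 farthest arrays). Fcer2 and Fcmr had r = 0.91 (exact permutation p = 0.00397, adjusted 0.0159, rho = 0.95, adjusted 0.00638, r = 0.74 without its own 2 farthest arrays). In every pair these are the arrays farthest from the median of the first-named gene, so they can differ between pairs. Fcmr and Pou2af1 had r = 0.91 (exact permutation p = 0.00117, adjusted 0.00655, rho = 0.98, adjusted 0.00371, r = 0.95 without the 2 farthest arrays), and Fcer2 and Pou2af1 had r = 0.9 (exact permutation p = 0.000496, adjusted 0.00655, rho = 0.98, adjusted 0.00371, r = 0.87 without them). Cd79b and Ms4a1 had r = 0.9 (exact permutation p = 0.000967, adjusted 0.00655, rho = 0.86, adjusted 0.0374, r = 0.83 without them). Cd79b and Pou2af1 had r = 0.89 (exact permutation p = 0.00362, adjusted 0.0159, rho = 0.95, adjusted 0.00638, r = 0.85 without them). The pairs of Cd79b with Fcer2 and of Blk with Pou2af1 were also under the threshold, but clearly weaker without their farthest arrays. Cd79b and Fcer2 had r = 0.81 (exact permutation p = 0.0126, adjusted 0.0436) and r = 0.5 without them. Blk and Pou2af1 had r = 0.83 (exact permutation p = 0.014, adjusted 0.0436, rho = 0.81, adjusted 0.0555) and r = 0.55 without them. For Fcer2 and Fcrla r was 0.74 (exact permutation p = 0.0376, adjusted 0.0702, rho = 0.55, adjusted 0.228) and only -0.04 without the 2 farthest arrays, so that relation rests on those arrays, high-fat replicates 1 and 2. Fcmr and Fcrla, the genes with the printed sequences, had r = 0.78 (exact permutation p = 0.023, adjusted 0.0537, rho = 0.64, adjusted 0.142, r = 0.57 without the 2 farthest).

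The correlations of Cd22 with the others ran from -0.17 with Blk to 0.61 with Fcrla, and none had an adjusted exact permutation p under 0.05. The labels name no batch of extraction, labelling or scanning, so the part of such a batch in the common pattern was not tested.

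**Figure D4:**
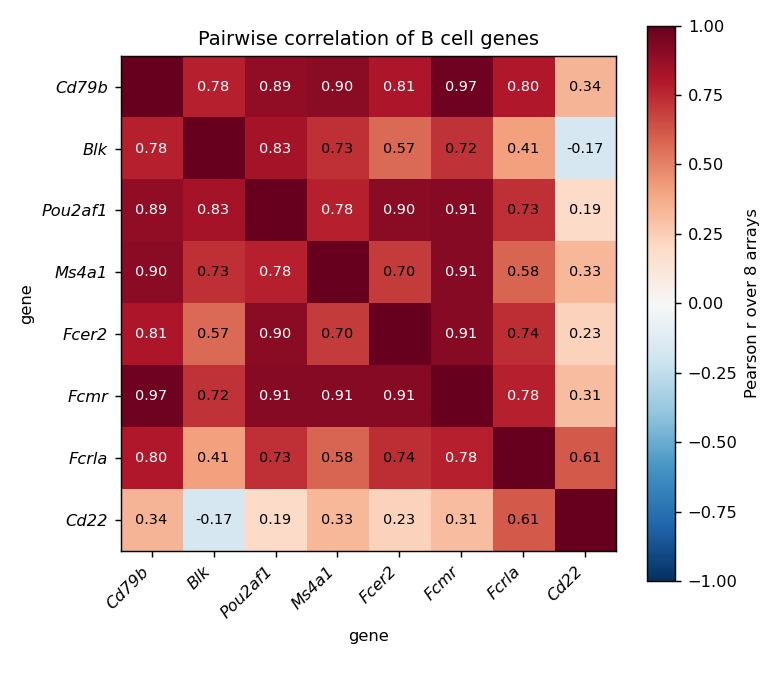
Pearson correlation of each pair of the 8 genes over the 8 arrays (colour and number), genes on both axes. The block from Cd79b to Fcmr runs from 0.57 up to 0.97 for Cd79b with Fcmr, and the row of Cd22 is low, down to -0.17 with Blk.

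Genes whose pattern was most like the mean of the 8 members were then named, out of 14209 other genes, whose median correlation with that mean was 0.02. Mef2c, a transcription factor used in B cells and other lineages, was closest (r = 0.989 over 8 arrays). It was followed by RT1-Db1, an MHC class II beta chain (0.971), the chemokine receptor gene Ccr6 (0.968), the phosphoesterase gene Mppe1 (0.965), the glycolipid enzyme gene B3gnt5 (0.961), the ubiquitin ligase gene Pja2 (0.96), the Golgi protein gene Golgb1 (0.957) and Ighvl1, annotated as an immunoglobulin heavy variable gene (0.956). Ighvl1 belongs to a multigene family, so its probe set may report several genes. These correlations are descriptions over 8 shared arrays, chosen as the highest of many, and 0.345% of the other genes reached 0.9. Mef2c had the members' array order, with high-fat arrays at 1.3, 1.54, -0.62 and -0.06 and mulberry arrays at -1.1, 0.31, -1.08 and -0.29. The class II gene RT1-Db1 stood at 1.21, 1.51, -1.13 and 0.25 in the high-fat and at -0.72, 0.34, -1.07 and -0.39 in the mulberry arrays.

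Of 29 measured genes of B cell receptor signalling other than the members, 24 had a lower and 5 a higher mean with mulberry, none passed the threshold, and the median difference was -0.636, against 50.9% lower and a median of -0.019 over all genes. By the smallest unadjusted limma p these were led by Rasgrp3, an activator of Ras (1.3 ± 0.517, SE, the opposite direction to most), Bcl10, an adaptor toward NF-kB (-1.25 ± 0.537), and Fcgr2b, the inhibitory IgG receptor (-1.09 ± 0.583). An adaptor and a coreceptor of this pathway, chosen after their values were seen, correlated with the members' mean, though not in the same order of arrays. Their differences between diets were far smaller than their SE. Blnk, which links the kinase Syk to its targets, differed by -0.252 ± 0.711 (SE) with r = 0.905 to the members' mean, and Cr2, the complement receptor of B cells, differed by -0.197 ± 0.714 (SE) with r = 0.891. In Blnk the high-fat arrays stood at 0.52, 1.6, -1.39 and -0.23 and the mulberry arrays at -0.77, 0.97, -0.81 and 0.11, so each diet held both high and low arrays.

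Among 12 measured transcription factors of the B lineage, 9 were lower and 3 higher, none passed, and the median difference was -0.471. Irf8, which acts in B cells and in myeloid cells, differed by -1.27 ± 0.526 (SE, limma unadjusted p = 0.0471, adjusted 1.0), Mef2c by -1.08 ± 0.587 and Pou2f1, a ubiquitous octamer factor, by 1.23 ± 0.783. Irf8 was highest in high-fat replicate 4 (1.97), an array in which the 8 members averaged 0.0. Ebf1, a factor that commits cells to the B lineage, was chosen after its values were seen: it followed the members (r = 0.931) with a difference of -0.466 ± 0.695 (SE).

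Other B cell surface proteins and survival receptors had lower means in 17 of 20 genes, none passed, and the median difference was -0.611. By the smallest unadjusted limma p, and with adjusted p of 1.0, this list was led by the chemokine receptor gene Cxcr4 (-1.49 ± 0.439, SE, unadjusted p = 0.0123), the lymphotoxin gene Ltb (-1.46 ± 0.466) and the activation marker gene Cd83 (-1.25 ± 0.535). Cxcr4 did not share the members' pattern (r = 0.0447), being highest in high-fat replicate 3 at 1.89, whereas Cd83 did (r = 0.948). Many of these genes are also used by T cells, monocytes or dendritic cells.

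Immunoglobulin and plasma cell genes gave another picture. Of 9 measured, 5 had a lower and 4 a higher mean, none passed, and the median difference was -0.0365. Prdm1, the factor that drives B cells to become plasma cells but also acts in T cells, differed by -1.45 ± 0.465 (SE, limma unadjusted p = 0.0176), the kinase gene Pim2 by 1.38 ± 0.487 and the secretory pathway gene Fkbp11 by 0.852 ± 0.639. Jchain, the chain that joins secreted IgM and IgA, was chosen after its values were seen. It stood at -0.66, -0.03, -0.65 and 0.11 in the high-fat and at -0.63, 0.71, -0.93 and 2.09 in the mulberry arrays, so it was highest in mulberry replicate 4, where the 8 members averaged -0.08. No gene of this list reached r = 0.9 with the members' mean, and 6 of the 9 were below 0.

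A list of ligands and partner genes of B cells, most of which do not bind a member, had 2 genes with a lower and 6 with a higher mean. Its median difference was 0.242, and none passed the threshold. Cxcl13, the chemokine that draws B cells into follicles, differed by 0.954 ± 0.667 (SE), the helper T cell ligand gene Cd40lg by -0.645 ± 0.684 and the cytokine gene Il4 by 0.595 ± 0.752.

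**Figure D5:**
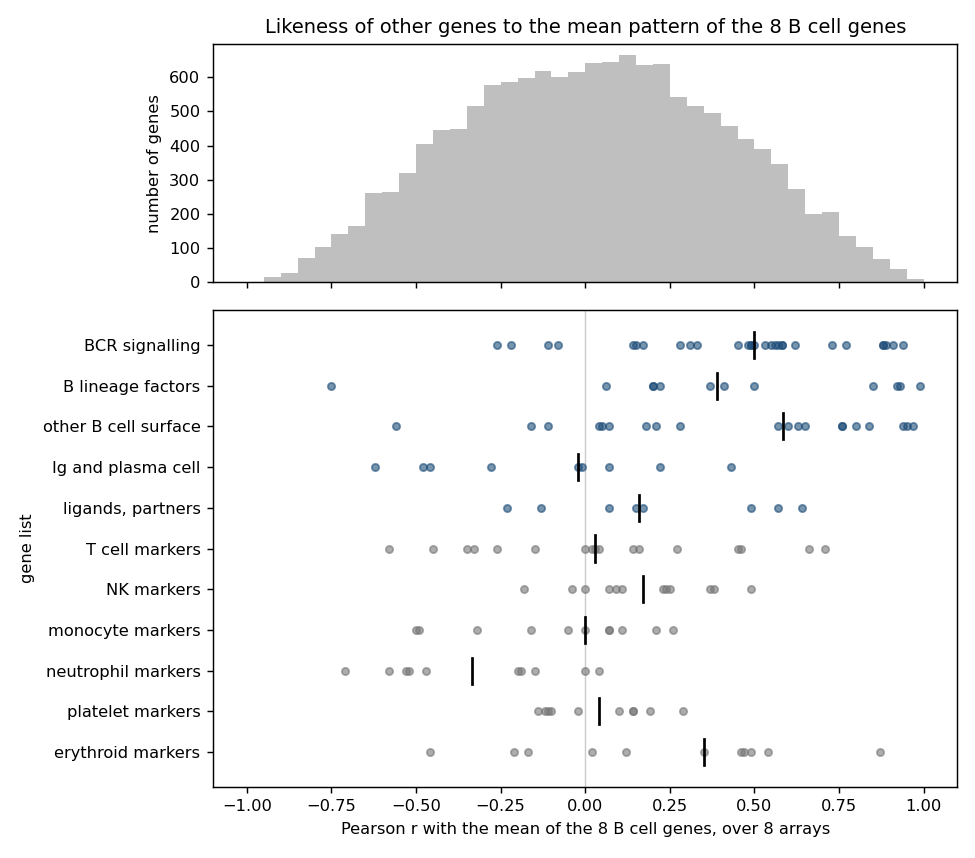
Pearson correlation over the 8 arrays with the mean pattern of the 8 genes (horizontal axis): the upper panel counts the 14209 other named genes per bin, and the lower panel shows each measured gene of 5 B cell lists (blue) and 6 marker lists of other cells (grey), with the median as a black bar. The B cell surface list has the highest median at 0.58 and the neutrophil list the lowest at -0.34.

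Markers of other blood cells were placed beside the members. Of 17 T cell markers, 7 had a lower and 10 a higher mean with mulberry, and their mean score ran from -0.42 to 0.9 in the high-fat and from -0.33 to 0.47 in the mulberry arrays. Natural killer markers were lower in 11 of 12 genes, with high-fat replicate 4 at 1.88 and the other 7 arrays between -0.57 and 0.11. Monocyte markers, lower in 8 of 11, were likewise highest in high-fat replicate 4 (1.87), and their mulberry arrays ran from -0.92 to 0.61. Erythroid markers were lower in 9 of 11 genes, from -0.48 to 1.16 in the high-fat and from -0.43 to 0.14 in the mulberry arrays. This count and score include Hbb, whose probe set had almost no spread (SD 5.18e-09) and a difference of -0.483 ± 129 (SE). Neutrophil markers were lower in 3 of 10 genes (-1.36 to 0.47 and -0.38 to 0.67), and platelet markers in 0 of 10, all 10 being higher (-1.53 to 0.19 and -0.39 to 1.62). High-fat replicates 1 and 2, in which the B cell genes were highest, had erythroid scores of 1.16, the highest of all arrays, and -0.15, and T cell scores of -0.4 and 0.9. Their natural killer scores were 0.11 and -0.09, their monocyte scores -0.12 and -0.46, their neutrophil scores 0.16 and -1.36 and their platelet scores -0.02 and -0.24. In high-fat replicate 1 the red cell genes Xpo7 (2.46), Tmcc2 (2.45) and Gypc (2.35), chosen after their values were seen, stood far above the other arrays. The rest of the erythroid list ran from -0.12 (Epb42) to 2.03 (Ahsp) in that array, with Slc4a1 at 0.15 and Alas2 at 0.44. None of these markers passed the threshold, and the part of other cell types in the B cell values was not tested.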

How the data were processed

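Whole blood RNA (200 ng per array, per the labels' protocols) was hybridized to 8 arrays, 4 per diet. The deposited table holds values taken to be log2 summaries per probe set, from 5.17 to 15.26. How probes were summarised and normalized is not given in the sources used here. Of 31099 probe sets, 57 controls were left out of the tests. Names came from the platform annotation, with gene numbers matched to RefSeq (GRCr8) for 20758 of 20826 probe sets naming 1 gene, and 436 naming several were not used. For 1 value per gene, the probe set of highest mean over the arrays was kept (14217 genes).

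All probe sets entered 1 fit in R 4.3.3 with limma 3.58.1 (moderated by eBayes, two-sided, without covariates), with p-values adjusted by Benjamini-Hochberg over the whole table, at a threshold of 0.05. SE values are limma's moderated ones over the SD of the 8 arrays. Exact permutation tests between diets used all 70 assignments of arrays, and those of correlations all orders of the 8 arrays. The fit was also run on simulated data in which changed probe sets moved by several within-diet SDs, far more than the members did. That run does not tell how often differences of the members' size would be called.

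The members and lists were chosen with earlier results of these data known. Named beside the members were the 3 genes of smallest unadjusted p per list and the 8 genes of most like pattern, and further genes are marked in the text as picked with their values in view. Alternatives were other scalings, a filter on dim probe sets, control probe sets as covariates, a replicate block, other variance models, another threshold, averaging the probe sets of a gene, and leaving out each array.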

Additional observations from a re-analysis of the deposited data

Results flagged for a closer look

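Each value given by array was checked, within each diet, for 1 array far from the other 3, and 3 of 90 such groups of 4 arrays had one, where chance gives about 1 in 20. None was a B cell member. The red cell genes Xpo7, Tmcc2 and Gypc, which stood far above the other arrays in high-fat replicate 1, were not among the checked groups. The T cell marker score of high-fat replicate 2 was 0.9, with the nearest other high-fat array at -0.32. The monocyte marker score of high-fat replicate 4 was 1.87, with the nearest other at -0.12. Pou2f1 in high-fat replicate 3 stood at 0.66, with the nearest other at -0.95.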

How the results depend on the processing

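The calls did not change for the members: 0 of their 11 probe sets (of those kept, where dim ones were left out) were called under every alternative run, while over the whole table limma called 12 probe sets after quantile normalization and 0 otherwise (1352 had an unadjusted p under 0.05 on the deposited values). The number of the 8 genes with a lower mean ran from 6 (median centring) to 8, and their median difference from -0.476 (quantile normalization) to -0.854 (array quality weights) among the settings that kept all arrays. Leaving out 1 array gave 7 or 8 lower genes and medians from -1.28 to -0.577. Single genes turned as follows, and the cause was not tested. Cd22 turned to 1.26 after median centring, to 0.12 with the hybridization controls and to 0.452 with the polyA controls in the model, and ran from -1.33 to 0.188 over the arrays left out. Blk turned to 1.14 after median centring and to 0.0792 with the mean of its probe sets, and ran from -0.923 to 0.0585 over the arrays left out. Median centring shifts all probe sets of an array alike, and the size of that shift beside each gene's SD is not given here. Whether the replicate numbers pair the arrays was not tested and is not known. Same-numbered deviations correlated at -0.0462, -0.0505, 0.2462 and 0.1629 (replicates 1 to 4), and differently numbered ones from -0.1993 to 0.1466. Replicates 3 and 4 thus lay above that range, and replicates 1 and 2 inside it. With the replicate number as a block the median stayed at -0.817 with 0 calls, and 2 member probe sets, against 0, had an unadjusted p under 0.05. The Ms4a1 probe set was among these (limma unadjusted p = 0.0271, adjusted 0.869). Such a p was found for 1728 of all probe sets with the block, against 1352 without it. Without high-fat replicate 2, 1 member probe set had such a p, beside 1441 of all probe sets. Without high-fat replicate 3, 1 member probe set did, beside 2054 of all.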

Other observations

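In the B cell lists, 0 of 9 immunoglobulin and plasma cell genes and 0 of 8 ligands and partners reached r = 0.9 with the members' mean over the 8 arrays. In the other lists 2 of 29 receptor signalling genes, 3 of 12 transcription factors and 3 of 20 surface genes did, against 0.345% of all non-member genes. The lists were chosen with earlier results known, so these shares are a description. Mef2c and Ccr6 are among the listed genes that reached 0.9 and among the 8 closest genes. The genes named next were chosen after their values were seen. Bank1, a scaffold of B cell receptor signalling, had r = 0.942, with high-fat arrays at 0.73, 1.61, -0.91 and -0.16 and mulberry arrays at -1.4, 0.46, -0.8 and 0.47, and a difference of -0.636 ± 0.675 (SE). Cd74, the invariant chain of MHC class II, had r = 0.941 and a difference of -0.972 ± 0.613 (SE), and its highest arrays were again high-fat replicates 1 and 2 (0.93 and 1.33). Immunoglobulin transcripts did not move as one: Ighvl1 followed the members, while the light chain gene Iglc1 stood at -1.32, 0.02, 0.58 and 0.79 in the high-fat and at -1.16, 1.58, 0.16 and -0.66 in the mulberry arrays.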
